A study of Sus scrofa domesticus with 11 samples.

Results

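The mitochondrial genome of the pig is represented by 34 of the 22029 genes of the deposited table, namely every gene that the table places on chromosome MT. They comprise 13 protein-coding genes, 2 ribosomal RNA (rRNA) genes and 19 transfer RNA (tRNA) genes. Liver RNA came from preterm Yorkshire piglets kept on parenteral nutrition (intravenous feeding) and was collected on day of life 15. In the treated group (5 libraries) the piglets received SEFA-6179, a compound known here only by its code name, at 48 mg/kg. In the control group (6 libraries) they received MCT, a medium-chain triglyceride vehicle, at 3 ml/kg. Prematurity, breed, parenteral nutrition and age were shared by both groups, so no library stands for a healthy or an enterally fed piglet. The labels name the libraries as separate samples, and p-values measure the spread between these samples.

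Mitochondrial DNA is a small circular genome present in many copies per cell, and each strand is transcribed as long precursors. The tRNA genes lie between most of the other genes and are cut out of the precursors, which releases the messenger and ribosomal RNAs. All of its proteins are subunits of respiratory chain complexes I, III and IV and of the ATP synthase, complex V, while the remaining subunits, the polymerase and the RNA processing enzymes are encoded in the nucleus. Hepatocytes, the main cell type of the liver, are rich in mitochondria.

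The libraries held 16821201 to 19215097 counts in the SEFA-6179 group and 15974977 to 23416071 in the MCT group. Levels are in CPM, which are counts scaled to the size of the library after trimmed-mean normalization. The start and end of all 34 genes in the deposited table equal those of the RefSeq annotation of Sscrofa11.1. RefSeq lists 22 mitochondrial tRNA genes, of which 3 are absent from the deposited table. The tRNA genes carry no symbol in the sources used here and are described by their neighbours. No label or header says whether the counting used the strand, so reads of a gene and of RNA from the opposite strand cannot be told apart. This applies to genes of either strand, among them ND6, the protein-coding gene on the minus strand, and the 7 tRNA genes of that strand. ATP8 shares 43 bases, 21.1% of its length, with ATP6, and the other overlaps of coding genes are of 17 bases (ND5 and ND6), 7 bases (ND4L and ND4) and 1 base (ATP6 and COX3).

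Hepatocyte markers were abundant in every library. The 15 hepatocyte markers present in the table summed to between 135282 and 223587 CPM with SEFA-6179 and between 94728 and 201785 CPM with MCT. Summed levels of the other cell type lists also overlapped between the groups. They ranged from 173 to 253 CPM against 190 to 475 CPM (MCT) for cholangiocyte markers, from 637 to 1070.2 CPM against 527 to 960 CPM for endothelial markers, and from 584 to 931 CPM against 765 to 1136 CPM for stellate cell and fibroblast markers. Macrophage markers ranged from 841 to 3575 CPM against 1445 to 2855 CPM, T and NK cell markers from 11.9 to 40.8 CPM against 12.5 to 38.8 CPM, and erythroid markers from 271 to 533 CPM against 140 to 454 CPM. Member by member some lists leaned to one side. The log2 fold change was above 0 for 11 of 11 tested endothelial markers (median 0.34), 9 of 9 T and NK cell markers (0.19), 8 of 11 macrophage markers (0.33) and 12 of 16 table entries for hepatocyte markers (0.23). It was below 0 for 8 of 10 cholangiocyte markers (median -0.48), 9 of 11 stellate cell and fibroblast markers (-0.14) and 5 of 6 erythroid markers (-0.32). No marker passed edgeR's adjusted test, and the smallest adjusted p was 0.0539, for a cholangiocyte marker. The part of these cell types in the results below was not tested.

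Mitochondrial genes took a similar share of the liver libraries in both groups. The 34 genes held 10.998%, 8.64%, 8.03%, 9.11% and 12.6% of all counts in SEFA-6179 libraries 1 to 5. In MCT libraries 1 to 6 they held 9.37%, 10.8%, 6.90%, 10.9%, 6.66% and 9.47%. MCT libraries 3 and 5 were below every SEFA-6179 library, SEFA-6179 libraries 1 and 5 were above every MCT library, and the remaining libraries of the groups interleaved. The mean share was 9.87% ± 1.88 (SD, n = 5) with SEFA-6179 and 9.002% ± 1.83 (SD, n = 6) with MCT, a difference of 0.87 percentage points, smaller than the SD of either group. The difference was 0.19 without SEFA-6179 library 5, 0.40 without MCT library 5, 0.45 without MCT library 3 and 1.33 without SEFA-6179 library 3, and it was 1.35 when the 10 most abundant nuclear genes were left out of the total. The 95% exact binomial interval of a library's share was at most 0.0311 percentage points wide, and such intervals cover counting error only. In RNA from whole tissue, fewer cells of a type and less RNA per cell cannot be told apart. ALB, which encodes albumin, held between 4.24% and 11.6% of the counts with SEFA-6179 and between 4.04% and 11.3% with MCT.

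**Figure D1:**
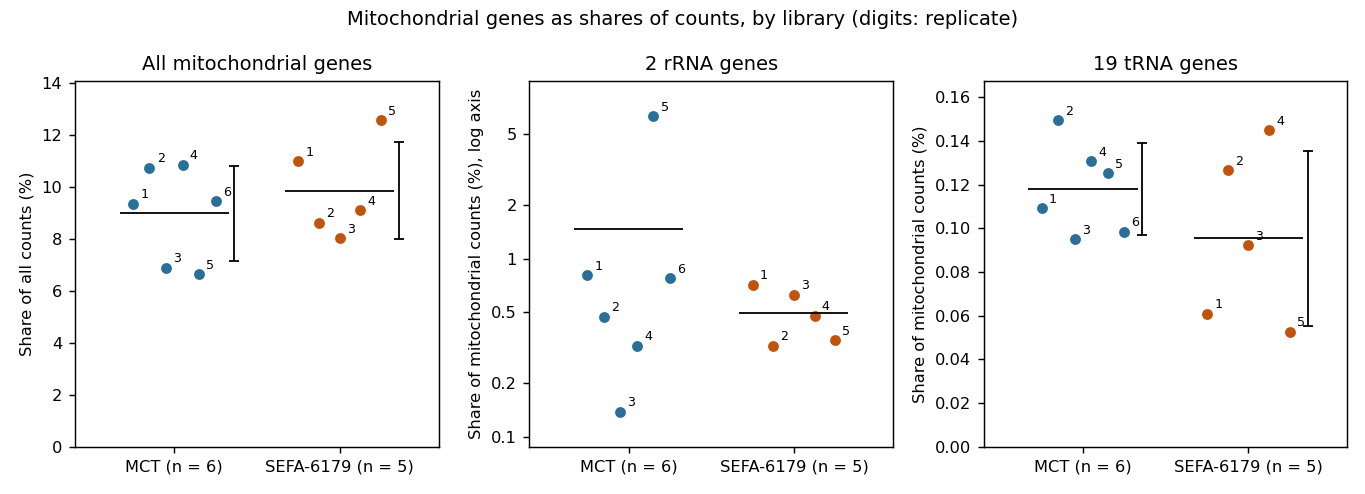
Share of all counts held by the 34 mitochondrial genes (left, %), and shares of the mitochondrial counts held by the rRNA genes (middle, %, log axis) and the tRNA genes (right, %), for 6 MCT and 5 SEFA-6179 libraries. Each point is a library labelled with its replicate number, lines are group means and bars are SD where the axis is linear. The groups overlap in all panels, and MCT library 5 stands at 6.31% in the rRNA panel, above all other libraries.

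Protein-coding genes gave nearly all of the mitochondrial counts, 99.2% to 99.6% in SEFA-6179 libraries and 93.6% to 99.8% in MCT libraries. The rRNA genes gave 0.714%, 0.325%, 0.628%, 0.480% and 0.349% in SEFA-6179 libraries 1 to 5. They gave 0.808%, 0.474%, 0.139%, 0.326%, 6.31% and 0.782% in MCT libraries 1 to 6. MCT library 5 stood apart on the high side and MCT library 3 was the lowest, while the other 4 MCT libraries covered about the same range as the SEFA-6179 group. The tRNA genes together gave between 0.0527% and 0.145% of the mitochondrial counts with SEFA-6179 and between 0.0950% and 0.149% with MCT.

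Set per length, the genes of complexes IV and V other than ATP8 had the highest levels. FPKM values as deposited by the authors, which relate the count to depth and gene length, averaged 18907 for ATP6, 18537 for COX1, 16262 for COX3 and 13491 for COX2 over the 11 libraries. CYTB, the mitochondrial subunit of complex III, followed with 6140 FPKM. The complex I genes came next, with ND1 at 4726 FPKM, ND6 at 4674 FPKM, ND2 at 4316 FPKM, ND3 at 3780 FPKM, ND4 at 3566 FPKM, ND4L at 1999 FPKM and ND5 at 1922 FPKM. ATP8, which shares 21.1% of its length with ATP6, had the lowest FPKM of the coding genes, 1797. How reads in shared bases were counted was not examined. Neighbours in this order had overlapping ranges over the libraries: CYTB ranged from 2284 to 9093 FPKM and COX2 from 9129 to 20781 FPKM, which was the sole gap between neighbours. Both rRNA genes were below every coding gene by this mean, at 419 FPKM for the gene of 960 bases and 284 FPKM for that of 1571 bases. The most abundant tRNA gene, between COX2 and ATP8, averaged 799 FPKM. All these are levels of counted reads, and the part of library preparation in the rRNA and tRNA levels was not tested.

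**Figure D2:**
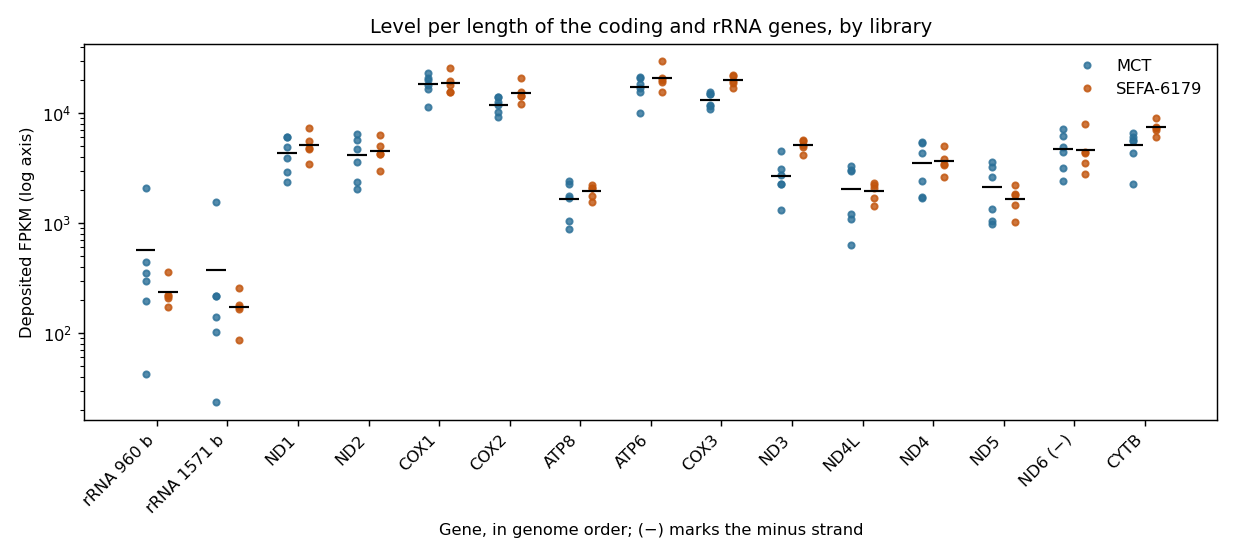
Deposited FPKM (log axis) of the 2 rRNA genes and the 13 protein-coding genes in genome order, for 6 MCT and 5 SEFA-6179 libraries. Each point is a library and short lines are group means. COX1, COX2, ATP6 and COX3 lie above the other genes, with COX2 at 9129 FPKM or more in every library, and the rRNA genes spread most widely within the MCT group.

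The comparison of SEFA-6179 with MCT asked whether the mitochondrial transcripts of the liver differed under treatment. In the quasi-likelihood test of edgeR, with p-values adjusted over all tested genes after Benjamini and Hochberg (threshold 0.05), 0 of the 24 mitochondrial genes with enough counts passed, while 0.219% of the 13671 tested genes did. At an unadjusted p under 0.05 there were 5 of 24, or 20.8%, where all tested genes gave 10.8%. DESeq2's Wald test called 3 of the 24, namely COX3, ND3 and a tRNA gene between ND4 and ND5, against 2.02% of all tested genes. The authors' deposited table has an adjusted p below 0.05 for 4 of the 34 genes and for 1.16% of all its genes. Its 4 genes are those of DESeq2 and a tRNA gene between the longer rRNA gene and ND1. The tested genes were 13 coding, 2 rRNA and 9 tRNA genes, and the 10 genes below the filter were all tRNA genes with mean counts from 0.273 to 14.7.

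Fold changes of the 24 tested genes were evenly split by direction but not by kind of gene. The log2 fold change of SEFA-6179 over MCT was above 0 for 12 genes and below 0 for 12, with a median of 0.0072, beside a median of -0.0014 for all tested genes, of which 6809 were above and 6862 below 0. Of the coding genes 10 of 13 were above 0, with a median of 0.23. That count depended on single libraries, since 7 of 13 were above 0 without SEFA-6179 library 5 (median 0.08) and 12 of 13 without SEFA-6179 library 3 (median 0.30). Both rRNA genes were below 0, with a median of -1.20, and 2 of 9 tRNA genes were above 0, with a median of -0.48. COX3 was the gene of the 24 for which every SEFA-6179 library lay above every MCT library, an arrangement found in 0.673% of all tested genes. None lay entirely below, which 0.819% of all tested genes did.

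**Figure D3:**
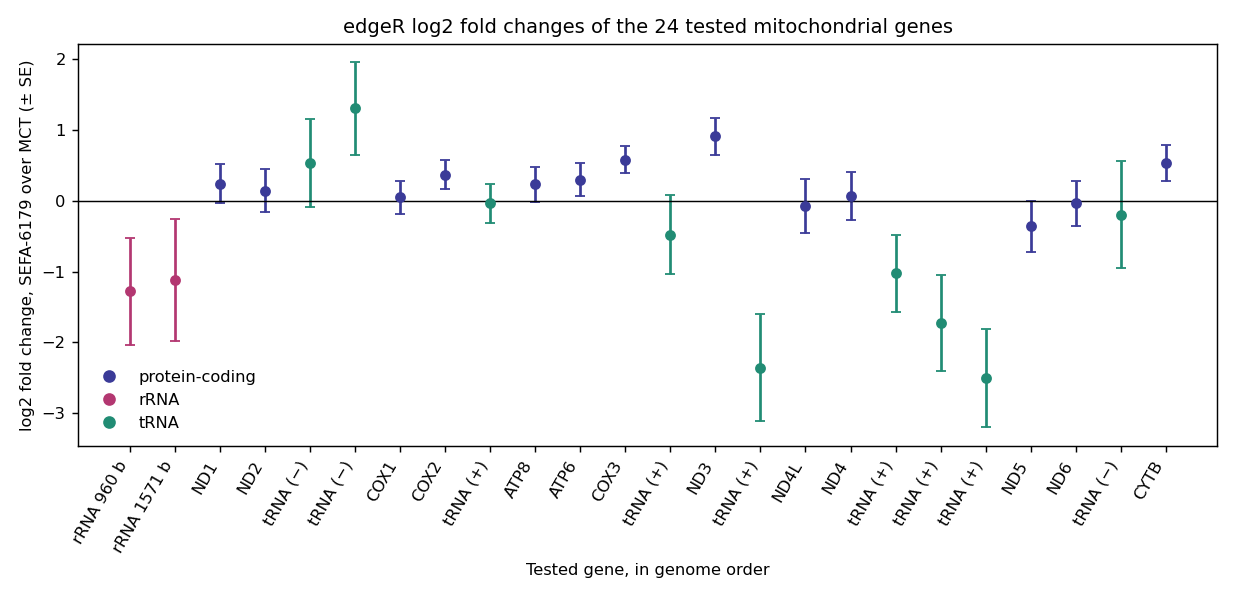
edgeR log2 fold change of SEFA-6179 over MCT (points) with its standard error (bars) for the 24 tested mitochondrial genes in genome order, coloured by kind of gene, with the strand of each tRNA gene. COX3, ND3, CYTB, COX2, ATP6 and 1 minus-strand tRNA gene lie above 0 by more than 1 standard error, and the lowest points are the tRNA gene directly before ND5 (-2.50) and that between ND3 and ND4L (-2.36).

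COX3, a core subunit of complex IV (MT:9800-10583, plus strand, identifier ENSSSCG00000018082), was the most evenly higher of the coding genes. Its level was 17519, 14972, 13300.1, 15551 and 17344 CPM in SEFA-6179 libraries 1 to 5. In MCT libraries 1 to 6 it was 11777, 9457, 9187, 11742, 8479 and 12325 CPM. The lowest SEFA-6179 library exceeded the highest MCT library, so the groups did not overlap. COX3 averaged 15737 ± 1755 CPM (SD, n = 5) against 10495 ± 1637 CPM (SD, n = 6). The log2 fold change was 0.58 ± 0.19 (SE), with an edgeR adjusted p of 0.255. DESeq2 gave an adjusted p of 0.00709, and the authors' deposited table gives a log2 fold change of 0.58 with an adjusted p of 0.0125. Over all alternative settings the log2 fold change of COX3 stayed between 0.47 and 0.65, and its adjusted p between 0.176 and 0.477 with DESeq2 left out.

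The other complex IV genes differed less. COX2, which carries a copper centre that receives electrons from cytochrome c, ranged from 8398 to 14438 CPM (median 9986) under SEFA-6179 and from 6386 to 9765 CPM (median 8444) under MCT. The 4 highest libraries were of the SEFA-6179 group, with library 3 among the MCT values. Its log2 fold change was 0.37 ± 0.20 with an edgeR adjusted p of 0.539. COX1, the catalytic subunit, ranged from 24055 to 40144 CPM (median 28273) under SEFA-6179 and from 17731 to 36201 CPM (median 29360) under MCT. The COX1 groups overlapped almost entirely, with a log2 fold change of 0.05 ± 0.23 (edgeR adjusted p = 0.963), and its sign turned without SEFA-6179 library 5 (-0.090) or without MCT library 3 (-0.058).

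ND3, a small core subunit of complex I (MT:10653-10998, plus strand, identifier ENSSSCG00000018084), had the largest difference among the coding genes. Its level was 1699, 1982, 1456, 1796 and 1954 CPM in SEFA-6179 libraries 1 to 5, and 782, 954, 795, 1083, 450.0 and 1592 CPM in MCT libraries 1 to 6. MCT library 6 lay within the SEFA-6179 range, and the other 5 MCT libraries lay below it. The means were 1777 ± 214 CPM (SD, n = 5) and 943 ± 383 CPM (SD, n = 6), a 1.89-fold ratio. On the log2 scale the difference was 0.92 ± 0.26 (SE), with an edgeR adjusted p of 0.193. DESeq2 gave an adjusted p of 0.0250, and the authors' deposited table gives 0.92 and 0.0248. Without MCT library 6 the log2 fold change was 1.13 and the edgeR adjusted p 0.0593.

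The 6 remaining complex I genes, of which ND1, ND2, ND4 and ND5 encode large membrane subunits, had log2 fold changes between -0.36 (ND5) and 0.24 (ND1). ND1 was at 4977 ± 1351 CPM under SEFA-6179 and 4208 ± 1523 CPM under MCT (log2 fold change 0.24 ± 0.28, edgeR adjusted p = 0.803). ND2 was at 4789 ± 1280 CPM and 4336 ± 1857 CPM (0.14 ± 0.31, edgeR adjusted p = 0.901). ND4 was at 5094 ± 1203 CPM and 4853 ± 2448 CPM (0.07 ± 0.33, edgeR adjusted p = 0.964). In each of these genes MCT libraries 3 and 5 were the lowest of all libraries. ND4L was at 585 ± 112 CPM under SEFA-6179 and 612 ± 357 CPM under MCT (-0.07 ± 0.38, edgeR adjusted p = 0.972). ND6 was at 2459 ± 1076 CPM and 2520 ± 970 CPM (-0.04 ± 0.32, edgeR adjusted p = 0.984). Leaving out single libraries turned the sign of ND2, ND4, ND4L and ND6.

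ND5, the largest coding gene, was the coding gene with the lowest log2 fold change. Its level was 2664, 3382, 1900.9, 3315 and 4059 CPM in SEFA-6179 libraries 1 to 5 and 4815, 6603, 1816, 5947, 1899.8 and 2478 CPM in MCT libraries 1 to 6. MCT libraries 1, 2 and 4 exceeded every SEFA-6179 library, whereas MCT libraries 3 and 5 lay just below the lowest of them. The log2 fold change was -0.36 ± 0.36 with an edgeR adjusted p of 0.770, and it was -0.15 without MCT library 2 and -0.51 without MCT library 3.

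CYTB, the heme-binding core of complex III, was at 8100.1, 8597, 6923, 8511 and 10468 CPM in SEFA-6179 libraries 1 to 5. In MCT libraries 1 to 6 it was at 6538, 6493, 4974, 7596, 2601 and 6999 CPM. All SEFA-6179 libraries but library 3 exceeded every MCT library, and MCT library 5 was far below the rest. The log2 fold change was 0.54 ± 0.25 with an edgeR adjusted p of 0.470, and it was 0.39 without MCT library 5. ATP6, which forms part of the proton path of the ATP synthase, was at 14484 ± 3586 CPM under SEFA-6179 and 11767 ± 2845 CPM under MCT (0.30 ± 0.24, edgeR adjusted p = 0.695). ATP8, a small subunit of the same complex, was at 403 ± 57.3 CPM and 343 ± 128 CPM (0.23 ± 0.25, edgeR adjusted p = 0.787). Both complex V genes overlapped between the groups.

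Across the 13 coding genes the extremes came from few libraries. The lowest level in CPM was in MCT library 3 for 8 genes and in MCT library 5 for 5. That split depended on the scaling, where MCT library 3 had the highest factor, 1.22. As shares of all counts, ND1, ND2, COX2, ND4 and ND5 were lower in MCT library 5 than in MCT library 3. SEFA-6179 library 5 was highest for 6 genes, MCT library 2 for 4, and MCT library 4 and SEFA-6179 libraries 1 and 2 for 1 gene each. The MCT group therefore held both the lowest libraries and some of the highest.

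Expressed as a percent of the mitochondrial counts, which does not depend on how much of a library was mitochondrial, the coding genes had different mean shares but overlapped between the groups in every case. COX1 took 28.7% ± 1.63 (SD, n = 5) with SEFA-6179 and 32.5% ± 2.15 (SD, n = 6) with MCT, with ranges of 26.0% to 30.2% and 30.1% to 36.3% that met only at their ends. COX3 took 15.6% ± 1.59 and 12.4% ± 2.58, ND3 1.76% ± 0.246 and 1.09% ± 0.432, and CYTB 8.37% ± 0.613 and 6.72% ± 1.78. ND5 took 2.97% ± 0.511 and 4.23% ± 1.502, and ND4 4.94% ± 0.259 and 5.25% ± 1.66. For ND4L, ND4 and ND5 the 3 highest libraries were MCT libraries 1, 2 and 4, and the shares of these genes were more spread in the MCT group than in the SEFA-6179 group.

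**Figure D4:**
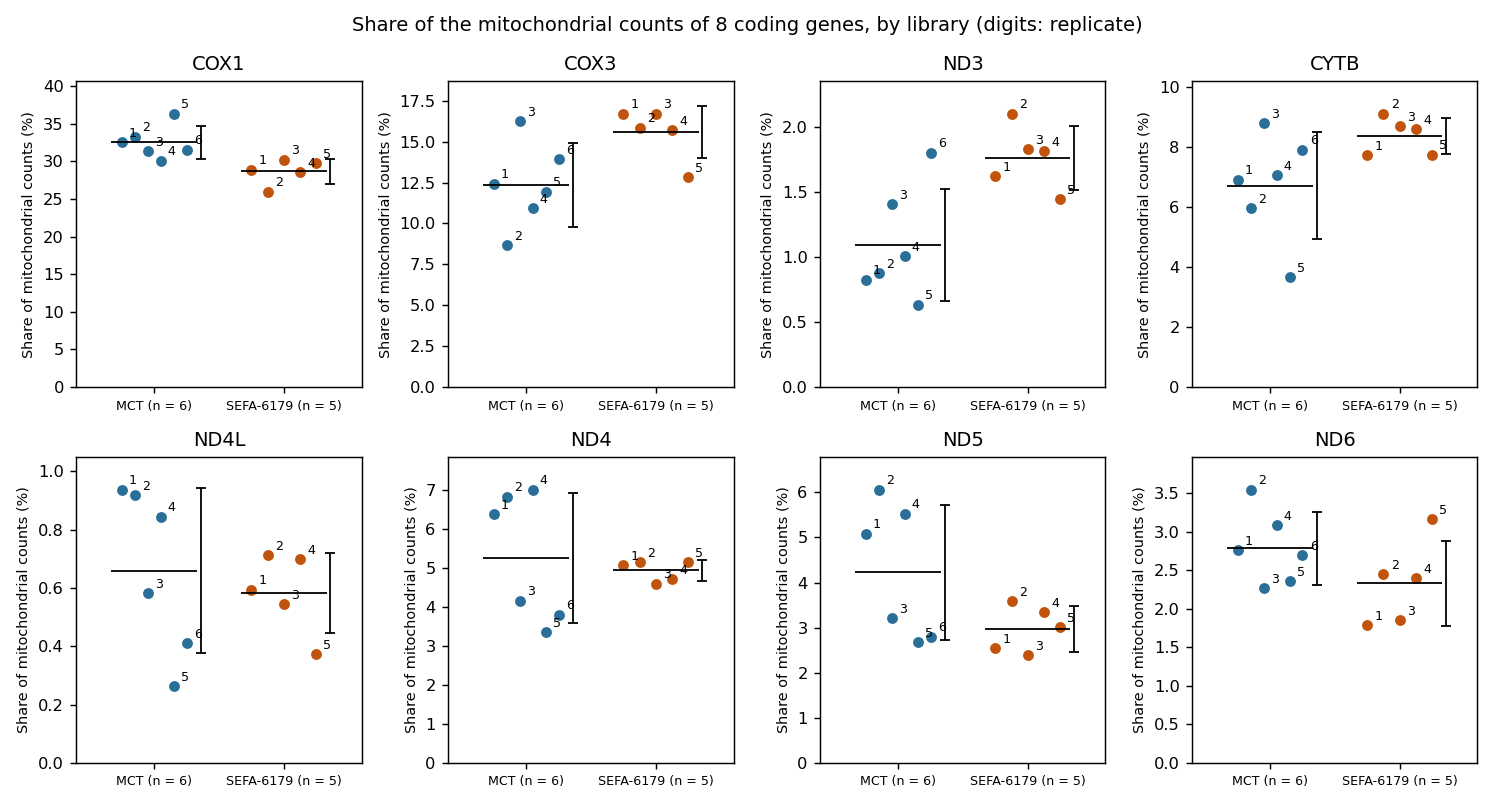
Share of the mitochondrial counts (%) of COX1, COX3, ND3, CYTB, ND4L, ND4, ND5 and ND6 in 6 MCT and 5 SEFA-6179 libraries. Points are libraries labelled with their replicate number, lines are means and bars are SD. MCT libraries 1, 2 and 4 lie above all others for ND4L, ND4 and ND5, where the MCT values fall apart into a higher and a lower set.

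By complex, complex I genes took 22.1% ± 1.66 (SD, n = 5) of the coding counts with SEFA-6179 and 23.8% ± 5.19 (SD, n = 6) with MCT. Complex IV genes took 55.0% ± 2.13 and 55.4% ± 4.79, complex III 8.42% ± 0.615 and 6.80% ± 1.70, and complex V 14.5% ± 0.587 and 14.02% ± 1.37. The groups overlapped for each complex, and the SD was larger in the MCT group for each.

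Ratios between genes of the same library, chosen after the values were seen and therefore given as a description, show the arrangement by library. ND5 counts over CYTB counts were 0.329, 0.393, 0.275, 0.389 and 0.388 in SEFA-6179 libraries 1 to 5. The ratio was 0.737, 1.02, 0.365, 0.783, 0.730 and 0.354 in MCT libraries 1 to 6. MCT libraries 3 and 6 lay within the SEFA-6179 range, and the other 4 lay well above it. ND4L over ND3 was between 0.258 and 0.385 with SEFA-6179, and 1.13, 1.05, 0.414, 0.839, 0.414 and 0.228 in MCT libraries 1 to 6. MCT library 6 was the lowest of all libraries in this ratio and MCT library 1 the highest.

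The relation of level to gene length over the nuclear genes also differed between libraries. Its slope, in log2 level per log2 unit of length relative to the mean of all libraries, was 0.04, 0.09 and 0.04 in MCT libraries 1, 2 and 4, the 3 highest of all libraries, and -0.10 in MCT library 5, the lowest. SEFA-6179 libraries ranged from -0.04 to 0.03. With a correction for gene length in edgeR, the log2 fold change was 0.47 ± 0.22 for COX3, 0.73 ± 0.26 for ND3 and 0.43 for CYTB. The corrected median of the 24 genes was -0.17, with 9 above 0, and the corrected median of the coding genes was 0.01, with 7 of 13 above 0.

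The rRNA genes make the RNAs of the small and large subunits of the mitochondrial ribosome, and their difference rested on MCT library 5. The gene of 960 bases (MT:1246-2205) was at 344, 168, 214, 200.2 and 211 CPM in SEFA-6179 libraries 1 to 5 and at 428, 292, 41.3, 190.4, 2017 and 345 CPM in MCT libraries 1 to 6. The gene of 1571 bases (MT:2274-3844) was at 405, 139, 286, 275, 261 CPM and at 338, 225, 37.3, 161, 2462 and 346 CPM. In both genes MCT library 5 was several times above every other library and MCT library 3 was the lowest. The log2 fold changes were -1.28 ± 0.76 (edgeR adjusted p = 0.579) and -1.12 ± 0.86 (edgeR adjusted p = 0.689). Without MCT library 5 they were -0.19 ± 0.47 and 0.31 ± 0.49, so the sign of the longer gene turned.

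The tested tRNA genes on the plus strand, 6 in number, all had log2 fold changes below 0, with a median of -1.37, and 2 of 3 on the minus strand were above 0, with a median of 0.54. Lowest of the tested tRNA genes were those that flank ND4L, ND4 and ND5. The tRNA gene directly before ND5 (MT:12865-12934) had 8, 21, 12, 8 and 6 counts in SEFA-6179 libraries 1 to 5 and 105, 168, 9, 108, 53 and 8 counts in MCT libraries 1 to 6. MCT libraries 3 and 6 were within the SEFA-6179 range, and the other 4 were above it. In CPM the means were 0.626 ± 0.340 (SD, n = 5) and 3.58 ± 2.77 (SD, n = 6), and the log2 fold change was -2.50 ± 0.70, with an edgeR adjusted p of 0.188. DESeq2 gave an adjusted p of 0.00883 and the authors' deposited table gives 0.0066. The edgeR log2 fold change was -3.12 with the length correction and -2.17 without MCT library 2.

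The tRNA gene between ND3 and ND4L (MT:11000-11068) was at 2.10, 5.25, 1.497, 0.892 and 2.09 CPM in SEFA-6179 libraries 1 to 5. In MCT libraries 1 to 6 it was at 10.8, 35.5, 2.72, 15.5, 6.17 and 2.05 CPM. MCT libraries 1, 2, 4 and 5 lay above every SEFA-6179 library. The log2 fold change was -2.36 ± 0.75 (edgeR adjusted p = 0.277), and it was -1.65 without MCT library 2, the highest. The 3 tRNA genes between ND4 and ND5 together were at 4.82, 8.60, 2.99, 5.35 and 3.32 CPM with SEFA-6179 and at 19.1, 33.8, 3.76, 23.3, 9.09 and 3.10 CPM with MCT. Here too MCT libraries 1, 2 and 4, those with the highest ND4L, ND4 and ND5 shares, were the 3 highest, and MCT libraries 3 and 6 lay within the range of the SEFA-6179 group. The other 2 genes at this place had log2 fold changes of -1.02 ± 0.55 (edgeR adjusted p = 0.527) and -1.73 ± 0.68 (edgeR adjusted p = 0.371).

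**Figure D5:**
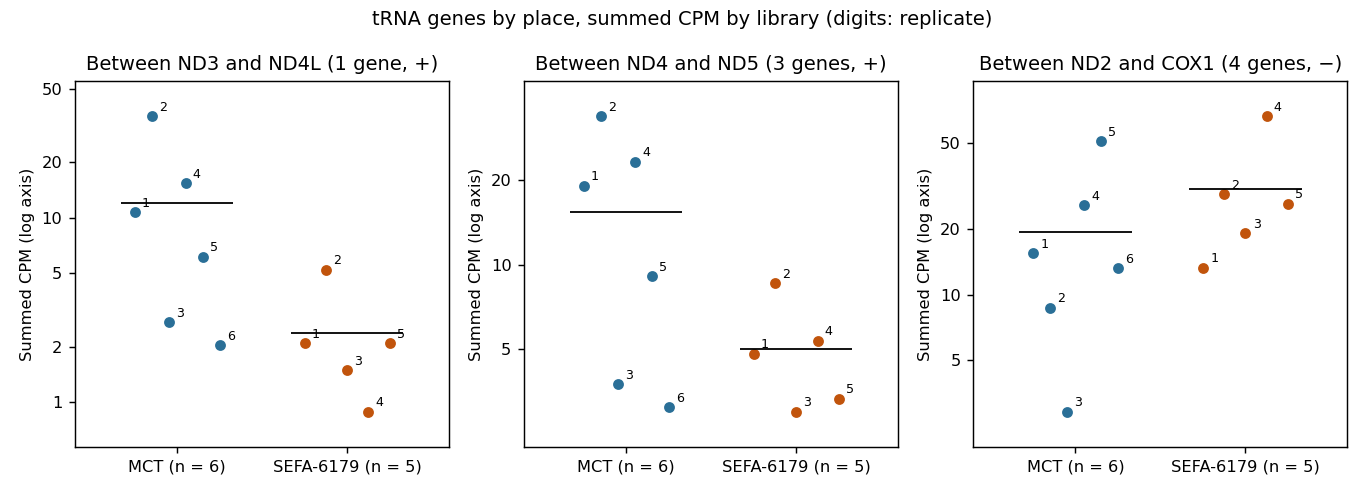
Summed CPM (log axes) of the tRNA gene between ND3 and ND4L, the 3 genes between ND4 and ND5, and the 4 minus-strand genes between ND2 and COX1, in 6 MCT and 5 SEFA-6179 libraries. Points are libraries labelled with their replicate number and lines are means. MCT libraries 1, 2 and 4 are highest in the left and middle panels but not in the right one, where the highest is SEFA-6179 library 4 at 65.9 CPM.

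The minus-strand tRNA genes between ND2 and COX1 had another order of libraries. Their 4 genes summed to 13.3, 29.0, 19.2, 65.9 and 26.2 CPM in SEFA-6179 libraries 1 to 5 and to 15.5, 8.74, 2.92, 25.8, 50.6 and 13.2 CPM in MCT libraries 1 to 6. SEFA-6179 library 4 and MCT library 5 were the highest here. The 2 tested genes of this cluster had log2 fold changes of 0.54 ± 0.62 (edgeR adjusted p = 0.806) and 1.31 ± 0.65 (edgeR adjusted p = 0.502). Without SEFA-6179 library 4 they were 0.15 and 0.58, and without MCT library 5 they were 1.19 and 1.80. The tRNA gene between COX2 and ATP8, the one with the highest counts, was at 53.4 ± 15.2 CPM under SEFA-6179 and 54.7 ± 20.4 CPM under MCT (-0.04 ± 0.28, edgeR adjusted p = 0.981). The tRNA genes between COX3 and ND3 (-0.48 ± 0.56, edgeR adjusted p = 0.807) and between ND6 and CYTB (-0.20 ± 0.76, edgeR adjusted p = 0.953) had few counts and overlapping groups. Among the genes too low to test, the one between the longer rRNA gene and ND1 (MT:3845-3919) had 3, 1, 1, 0 and 1 counts with SEFA-6179 and 9, 34, 1, 23, 6 and 9 counts with MCT. The authors' deposited table gives it a log2 fold change of -3.26 with an adjusted p of 0.0337. The remaining 9 genes had no library above 104 counts. The authors' deposited table gives none of them an adjusted p below 0.05, but whether all of them entered the adjustment is not given. Among them was the plus-strand gene between ND2 and COX1 (MT:6129-6196). It had 0, 2, 0, 2 and 0 counts in SEFA-6179 libraries 1 to 5. In MCT libraries 1 to 6 it had 9, 26, 5, 13, 3 and 2 counts. The authors' deposited table gives this gene a log2 fold change of -3.31 with an unadjusted p of 0.0020.

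Nuclear genes that transcribe, maintain and process the mitochondrial genome were measured in the same libraries. By edgeR's adjusted p, 0 genes passed in either direction among the 9 tested transcription genes (5 above 0, median log2 fold change 0.02), the 18 for replication and maintenance (8 above 0, -0.04), the 32 for RNA processing, modification and decay (12 above 0, -0.02), the 20 tRNA ligases (10 above 0, 0.0061) and the 14 regulators of mitochondrial biogenesis (6 above 0, -0.03). At an unadjusted p under 0.05 there were 0, 4 (22.2%), 1 (3.13%), 0 and 1 (7.14%) genes in these lists, beside 10.8% of all tested genes. TFAM, which packages mitochondrial DNA and starts its transcription, was at 40.0 ± 3.38 CPM (SD, n = 5) and 38.5 ± 4.02 CPM (SD, n = 6), and its log2 fold change was 0.05 ± 0.12. POLRMT, the mitochondrial RNA polymerase, was at 38.8 ± 5.20 and 40.2 ± 6.55 CPM (-0.05 ± 0.14), and MTERF3, a negative regulator of that transcription, was at 32.3 ± 5.81 and 23.3 ± 8.35 CPM (0.47 ± 0.23, edgeR adjusted p = 0.481). MTERF1, a transcription termination factor, was at 14.4 ± 2.18 and 13.2 ± 3.07 CPM (0.12 ± 0.18, edgeR adjusted p = 0.857). LRPPRC, which stabilises mitochondrial messenger RNAs, was at 80.4 ± 6.17 and 74.04 ± 12.1 CPM (0.12 ± 0.13). These lists were centred near the median of all tested genes.

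In the other lists the 2 genes with the smallest p are given, and TWNK and PPARGC1A whatever their p. SUCLG1, a succinyl-CoA ligase subunit, was at 393 ± 60.1 CPM under SEFA-6179 and 274 ± 22.96 CPM under MCT without overlap of the groups (log2 fold change 0.52 ± 0.15, edgeR adjusted p = 0.190). SLC25A4, an ADP/ATP carrier, was at 303 ± 47.4 and 209 ± 49.2 CPM (0.53 ± 0.18, edgeR adjusted p = 0.284), and TWNK, the mitochondrial DNA helicase, was at 21.2 ± 3.42 and 26.3 ± 7.37 CPM (-0.31 ± 0.19). TRMU, which modifies mitochondrial tRNAs, was at 19.2 ± 3.19 and 14.3 ± 2.34 CPM (0.42 ± 0.16, edgeR adjusted p = 0.325), and FASTKD2, a mitochondrial RNA-binding protein, at 12.6 ± 0.938 and 10.1 ± 1.75 CPM (0.32 ± 0.15). None of these passed the test. GATB, which helps to charge a mitochondrial tRNA, had a log2 fold change of -0.40 ± 0.21 (edgeR adjusted p = 0.508), and RARS2, the mitochondrial arginine tRNA ligase, -0.32 ± 0.17 (edgeR adjusted p = 0.531). PPARGC1A, a coactivator of mitochondrial biogenesis, was at 36.2 ± 15.6 and 24.5 ± 8.58 CPM (0.56 ± 0.34, edgeR adjusted p = 0.579), SIRT1, a deacetylase that acts on it, had -0.45 ± 0.18 (edgeR adjusted p = 0.375), and NRF1, a transcription factor for nuclear genes of mitochondria, -0.25 ± 0.14 (edgeR adjusted p = 0.548).

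The nuclear-encoded subunits of the same complexes lay on the higher side with SEFA-6179, though none passed the test. Of 75 listed subunits of complexes I, III, IV and V, 59 were found by symbol in the deposited table and 58 were tested. Among these 58, 54 were above 0 on the log2 scale, the median was 0.37, and 19, or 32.8%, had an unadjusted edgeR p under 0.05. Over all tested genes 6809 of 13671 were above 0 and 10.8% had such a p. By edgeR's adjusted p the number called was 0. Those with the smallest p were NDUFA5, a complex I subunit, at 33.3 ± 4.54 CPM (SD, n = 5) and 21.7 ± 4.42 CPM (SD, n = 6; log2 fold change 0.62 ± 0.15, edgeR adjusted p = 0.139), and UQCR10, a complex III subunit, at 64.1 ± 10.6 and 40.8 ± 9.30 CPM (0.65 ± 0.17, edgeR adjusted p = 0.153). The 13 mitochondrially encoded subunits had a median log2 fold change of 0.23, or 0.01 with the correction for gene length. For the nuclear-encoded subunits no length-corrected values were taken, and whether the 2 sets of subunits differ was not tested.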

How the data were processed

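The authors deposited, per the file headers, a raw read count per gene and library, an FPKM value, a normalized signal, and their own log2 fold change, p-value and adjusted p-value. The deposited normalized signal has a constant ratio to the count within each library, and so has the deposited FPKM once multiplied by gene length. The submitters' processing notes name DESeq2 1.20.0, featureCounts 1.5.0-p3, HISAT2 2.0.5 and StringTie 1.3.3b, with no roles. Genome build and strand setting: not given in the sources used.

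Counts were tested with edgeR 4.0.16 (R 4.3.3): filterByExpr with a minimum count of 10 kept 13671 of 22029 genes, libraries were scaled by TMM, and the robust quasi-likelihood test compared SEFA-6179 with MCT, two-sided, with Benjamini-Hochberg adjustment. DESeq2 1.42.0 and limma 3.58.1 were alternatives, and scripts used Python 3.11.15. The tests were checked on simulated data with genes changed by 1 or 2 log2 units, 100 of each. The changed genes were drawn from those with a mean count of at least 50, so recovery at lower counts was not checked. At 1 unit edgeR recovered 56 and DESeq2 70, and at 2 units they recovered 94 and 98. False calls numbered 11 with edgeR and 32 with DESeq2. Chi-square tests of the counts between libraries of the same group gave at least 45.7 per degree of freedom, so no 2 replicates of a group differed by sampling noise alone. Members are all genes on chromosome MT, and all were to be described. From each pathway list the 2 tested genes with the smallest p were named, plus TFAM, POLRMT, LRPPRC, TWNK and PPARGC1A. The members and lists were chosen with earlier results of these data known. Shares and sums over genes received no test.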

Additional observations from a re-analysis of the deposited data

Results flagged for a closer look

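In 6 of 62 groups of libraries checked, 1 library lay far from the others of its group by Dixon's criterion. Chance would give about 3.1 if the groups were independent. MCT library 5 accounts for 3 of the 6: the rRNA gene of 960 bases at 2017 CPM (next highest MCT library 428), the rRNA gene of 1571 bases at 2462 CPM (next 346), and the rRNA share of the mitochondrial counts at 6.31% (next 0.808%). These 3 are not independent, since the share is made up of the same rRNA genes. The rRNA gene of 960 bases was also high in SEFA-6179 library 1, at 344 CPM, where the next SEFA-6179 library had 214 CPM. The tRNA gene between ND3 and ND4L was at 5.25 CPM in SEFA-6179 library 2, above 2.10 CPM in the next. The first of the 3 tRNA genes between ND4 and ND5 was at 9.95 CPM in MCT library 2, above 4.73 CPM in the next.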

How the results depend on the processing

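Of the 21 alternatives, DESeq2's Wald test called mitochondrial genes, 3 of 24, and the others called 0, including each library left out in turn (0 to 0). The number called over all tested genes, 30 with edgeR, was 276 with DESeq2, 62 with limma and library quality weights, 6 with EIF1AY, a Y-linked gene, as covariate, and 1 without both SEFA-6179 library 4 and MCT library 5. It ran from 0 to 53 with single libraries left out: 9 without SEFA-6179 library 1, 53 without SEFA-6179 library 3, 0 without SEFA-6179 library 5 (1184 at an unadjusted p under 0.05), 1 without MCT library 1, 9 without MCT library 2, 16 without MCT library 3 and 0 without MCT library 4 (1257). With the replicate number as a block over replicates 1 to 5 it was 8, with 0 mitochondrial genes. Same-numbered libraries deviated together with correlations of -0.09, 0.07, 0.25, -0.21 and -0.02, so the numbers were not taken as pairs. Of the log2 fold changes of single mitochondrial genes under the alternatives, 461 kept their direction and side of the threshold. Another 3 newly passed it with DESeq2 and 37 changed sign, where 0 of the 24 genes had passed the main edgeR test. With the block the sign turned for the rRNA gene of 1571 bases (0.060), ND4L (0.055) and the tRNA genes between ND6 and CYTB (0.33) and between COX2 and ATP8 (0.10). It turned with limma for the rRNA genes of 960 bases (0.046) and 1571 bases (0.48), with the EIF1AY covariate for the tRNA gene between COX2 and ATP8 (0.0065), without both libraries for the rRNA gene of 1571 bases (0.31) and ND4 (-0.036), and with the length correction for ATP8 (-0.092), COX1 (-0.014) and ND4 (-0.040). With single libraries left out, the log2 fold change ran from -1.37 to 0.31 for the rRNA gene of 1571 bases, -0.59 to 0.16 for the tRNA gene between ND6 and CYTB, -0.20 to 0.086 for that between COX2 and ATP8, -0.33 to 0.13 for ND6, -0.26 to 0.13 for ND4L, -0.0072 to 0.32 for ND2, -0.090 to 0.13 for COX1 and -0.074 to 0.24 for ND4. The cause of these changes was not tested. With 1 library left out at a time, the difference in the mitochondrial share of all counts ran from 0.19 to 1.33 percentage points. The difference in the rRNA share then ran from -1.24 to -0.0066, the latter value without MCT library 5. The 10 untested tRNA genes had mean counts of at most 14.7.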
